A study of Mus musculus with 4 samples.

Results

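The genes described here are 39 genes of the actin cytoskeleton and of serum response factor (SRF), the transcription factor that drives many of them. They were taken by symbol from a deposited count table of 55812 features, where they fill 40 rows because Myl12b carries 2 Ensembl identifiers. For the contrast between muscle and general genes they were sorted into 10 smooth muscle genes (Acta2, Actg2, Cnn1, Tagln, Myl9, Lmod1, Mylk, Cald1, Tpm1 and Tpm2) and 27 general actin genes. Srf itself and Flnc, a filamin known mainly from striated muscle, stood outside both classes.

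RNA sequencing was carried out on primary mouse Leydig cells, the testosterone-producing cells of the testis, labelled as coming from 6-month-old mice. Control cells received Negative siRNA and the other cells received Trps1 siRNA, against the mRNA of the GATA-type repressor Trps1, with 2 samples in each group. The labels give no strain, siRNA sequence or treatment time, and they name no separate cultures or animals within a group. The p-values below therefore rest on a spread between samples that may be purely technical. The libraries held 17844125 to 25852898 counted reads.

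SRF binds a short DNA element named the CArG box. Its cofactors of the myocardin-related family (MRTF) are held in the cytoplasm by monomeric actin and enter the nucleus when actin polymerises, so that actin assembly feeds back on the genes of actin and its partners, Srf included. A second family of cofactors, the ternary complex factors such as Elk1, links SRF to immediate early genes. In the testis the contractile smooth muscle programme is best known from the peritubular myoid cells around the tubules and from vessel walls, while the general actin genes serve shape, adhesion and transport in most cells.

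The promoters of Srf, Acta2 and Myl9 are shown because these 3 genes were among the members with the lowest levels relative to control and because SRF is known to act through such sequences. Each is the 250 bases before the RefSeq transcription start on GRCm38.p6, read 5′ to 3′ on the gene's strand, with each match to the CArG box in capitals. The Srf window is chr17:46556163-46556412 on the minus strand and the Myl9 window chr2:156775214-156775463 on the plus strand. The Acta2 window is chr19:34255374-34255623 on the minus strand, and the GENCODE gene model of Acta2 reaches back over most of it. Both capitalised elements of Acta2 and the one of Myl9 nearer to the start have 1 core letter that is C or G in place of A or T. Lmod1 and Palld, at 60.1% and 62.2% of control, are not shown, and their promoters had no match of either kind.
Srf: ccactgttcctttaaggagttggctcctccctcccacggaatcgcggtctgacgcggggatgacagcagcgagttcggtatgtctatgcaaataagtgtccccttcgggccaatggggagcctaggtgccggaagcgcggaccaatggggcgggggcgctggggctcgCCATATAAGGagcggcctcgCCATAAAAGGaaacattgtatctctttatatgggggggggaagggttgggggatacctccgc
Acta2: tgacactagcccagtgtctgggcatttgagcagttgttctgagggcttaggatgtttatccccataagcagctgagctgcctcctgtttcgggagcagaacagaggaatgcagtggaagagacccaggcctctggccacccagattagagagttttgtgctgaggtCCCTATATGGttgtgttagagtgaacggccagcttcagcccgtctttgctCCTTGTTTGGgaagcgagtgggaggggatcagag
Myl9: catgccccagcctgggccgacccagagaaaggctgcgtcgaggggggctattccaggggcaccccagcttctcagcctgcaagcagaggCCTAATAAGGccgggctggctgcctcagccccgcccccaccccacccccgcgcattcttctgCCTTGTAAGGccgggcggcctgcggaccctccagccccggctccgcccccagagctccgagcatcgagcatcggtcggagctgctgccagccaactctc

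Windows around the CArG boxes of 5 further members are shown for the contrast between members called lower and members not called. Those of Cnn2 (chr10:79988519-79988578, plus strand), Lima1 (chr15:99820162-99820221, minus strand) and Myl6 (chr10:128493025-128493084, minus strand) belong to genes that fell. The windows of Actg1 (chr11:120348551-120348610, minus strand) and Vcl (chr14:20929148-20929205, plus strand) belong to genes that were not called.
Cnn2: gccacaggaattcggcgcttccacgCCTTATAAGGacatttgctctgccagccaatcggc
Lima1: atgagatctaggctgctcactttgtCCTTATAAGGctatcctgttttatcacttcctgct
Myl6: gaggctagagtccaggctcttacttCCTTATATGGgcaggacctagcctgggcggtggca
Actg1: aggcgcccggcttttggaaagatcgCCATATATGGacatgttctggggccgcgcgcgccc
Vcl: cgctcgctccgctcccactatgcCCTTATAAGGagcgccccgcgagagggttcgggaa

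The targeted gene Trps1 measured 38.1 and 42.2 CPM (reads relative to the scaled library total) in samples 1 and 2 of the control and 23.5 and 30.1 CPM in samples 1 and 2 with Trps1 siRNA. Values of all 4 samples are given in that order throughout. Its level was 67.1% of the control (log2 fold change -0.58 ± 0.10, SE; edgeR's quasi-likelihood test with Benjamini-Hochberg adjustment, adjusted p = 3.51e-04), so the knockdown was partial. The Leydig marker Cyp11a1, the side-chain cleavage enzyme of steroid synthesis, measured 2411, 2615, 3417 and 3655 CPM and rose 1.41-fold (adjusted p = 1.36e-06). Of 14701 genes tested, 882 were called lower, or 6.00%, and 770 were called higher, or 5.24%, at an adjusted p under 0.05.

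Among the 36 members with enough reads to be tested, 15 fell with Trps1 siRNA, or 41.7% beside 6.00% of all genes tested. A single member rose, or 2.78% beside 5.24%, and 20 were not called. Because the members were chosen with earlier results of these data known, these shares describe the list and are no test of it. The same holds for the shares of the classes below. The members that fell held Srf itself, 4 smooth muscle genes (Lmod1, Acta2, Myl9 and Tpm2) and 10 general actin genes (Palld, Cnn2, Zyx, Flna, Actn1, Lima1, Myl12a, Myl6, Tagln2 and Cnn3). Mylk, the myosin light chain kinase, was the member that rose. The median log2 fold change was -0.16 over the tested members and 0.002 over all genes tested, and the members ranged from -0.79 to 0.35. In 23 members, or 63.9%, both Trps1 siRNA samples were below both controls, which held for 26.1% of all genes tested. Each Trps1 siRNA sample on its own gave a similar member median of log2 ratios to the control mean, -0.17 and -0.18, beside 0 over all genes in both. RNA was taken from whole samples, in which fewer cells of a type and less RNA per cell cannot be told apart.

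**Figure D1:**
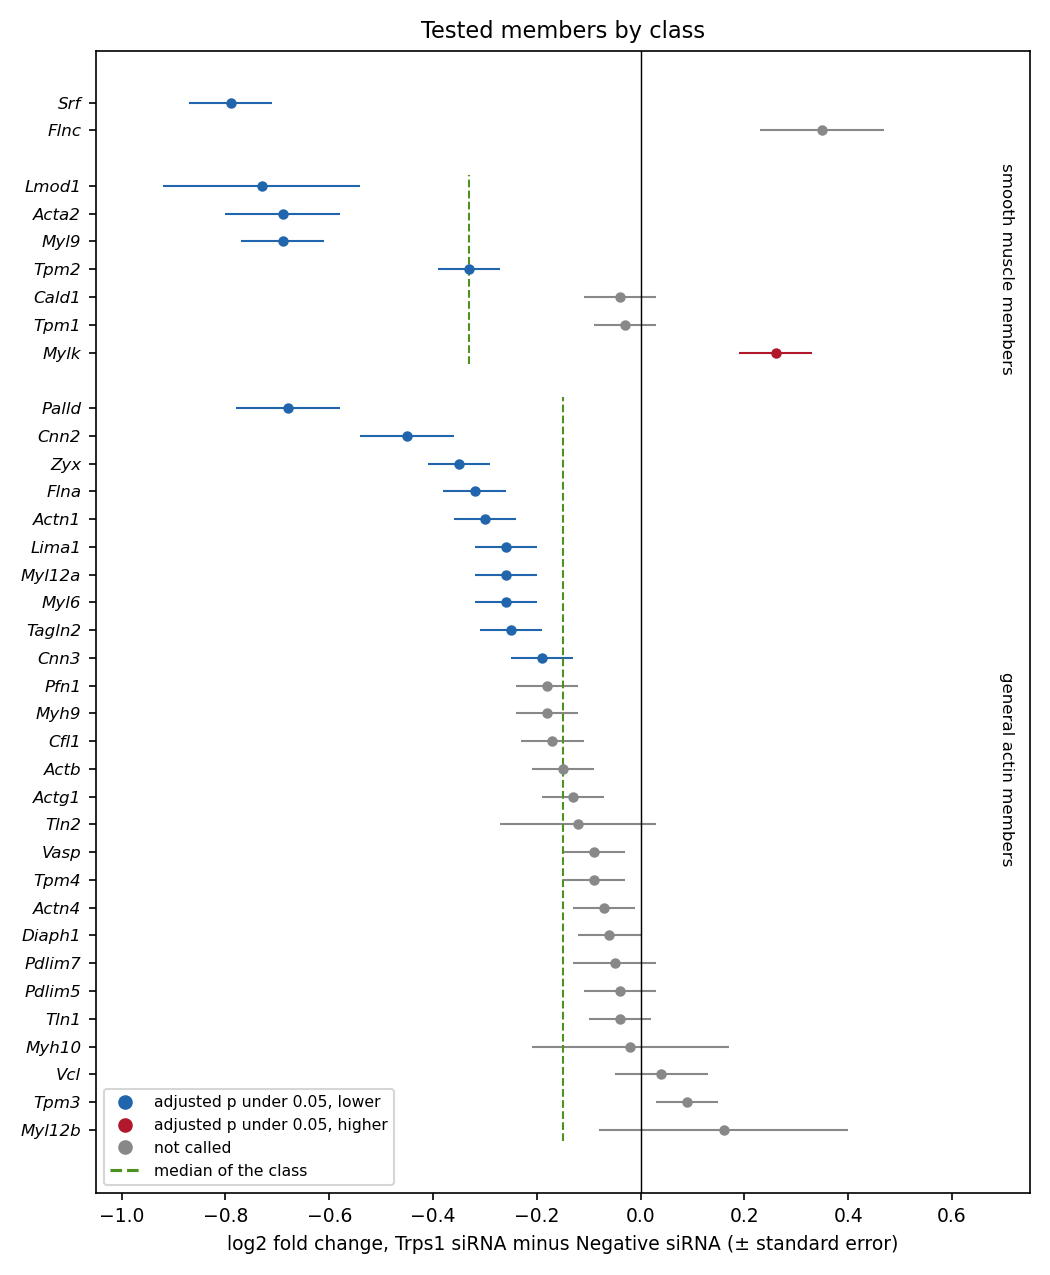
Log2 fold change of each tested member, Trps1 siRNA minus Negative siRNA, with its standard error as a horizontal bar and members sorted within their class (Srf and Flnc at the top). Srf, Lmod1, Acta2, Myl9 and Palld lie between -0.79 and -0.68, most general actin genes lie between -0.35 and 0, and the dashed class medians are -0.33 and -0.15.

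Members were also described by their level, without a test between levels and without a share over all genes of the same level. The 6.00% of all genes tested that were called lower is not matched to these levels. Of the 21 members with a control mean of 100 CPM or more, 9 fell, their levels lay between 78.7% and 106% of control, and their median log2 fold change was -0.18. Of the 15 members under 100 CPM, 6 fell and 1 rose, their levels ran from 57.9% to 127% of control, and the median was -0.06. Each of the 5 members with a log2 fold change of -0.68 or lower had a control mean under 100 CPM, where standard errors reached 0.19 in Lmod1 and 0.24 in Myl12b.

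Srf (chr17:46548329-46556175, ENSMUSG00000015605) had the lowest level of any member relative to control. It was counted 1118 and 1296 times with Negative siRNA and 547 and 669 times with Trps1 siRNA, or 55.6 and 50.6 against 30.6 and 30.8 CPM. Both Trps1 siRNA samples lay far below both controls and within 1 CPM of each other. Its level was 57.9% of control (log2 fold change -0.79 ± 0.08, SE, adjusted p = 2.04e-07).

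None of the tested MRTF and ternary complex cofactors of SRF was called by edgeR, where Elk1 alone had an unadjusted p under 0.05, and DESeq2 called 0 genes of their list. Of 8 tested genes of the list, which also holds regulators, 1 fell (Phactr1) and 0 rose, with a median log2 fold change of -0.12. Over all genes tested the shares were 6.00% lower and 5.24% higher. Mrtfa, an actin-sensing coactivator, had a log2 fold change of 0.00 ± 0.07, and its relative Mrtfb had -0.10 ± 0.08. The muscle-specific coactivator Myocd was counted 1, 0, 0 and 2 times, at or under the 3 counts taken as the limit of detection in each library. Among the ternary complex factors, Elk1 had a log2 fold change of -0.26 ± 0.12 (adjusted p = 0.174) and Elk3 -0.14 ± 0.10 (adjusted p = 0.445). Phactr1, an actin-monomer-binding regulator of protein phosphatase, fell from 14.5 and 13.8 to 10.6 and 9.85 CPM (72.2% of control, adjusted p = 0.0184). The Phactr1 call was lost without sample 2 of Trps1 siRNA (log2 fold change -0.42), without sample 1 of Negative siRNA and with DESeq2.

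The actin genes Actb, Actg1 and Acta2 set the scale of the filament system. Compared per length as TPM (transcript share after division by exon length), computed here from the counts and exon lengths, Actb (cytoplasmic β-actin) averaged 2855 in the controls, Actg1 (cytoplasmic γ-actin) 1141 and Acta2 (smooth muscle α-actin) 35.2. Acta2 therefore made up 0.89% and 0.855% of the TPM of the 3 genes in the controls, and it made up 0.607% and 0.592% with Trps1 siRNA. Acta2 (chr19:34241090-34255590, ENSMUSG00000035783) fell from 25.3 and 24.4 CPM to 15.8 and 15.0 CPM, on 282 to 625 reads per library. The groups were well apart, at 62.0% of control (log2 fold change -0.69 ± 0.11, SE, adjusted p = 6.90e-05).

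Actb measured 2448, 2479, 2267 and 2171 CPM, with both Trps1 siRNA samples below both controls, and did not pass the test (90.1% of control, log2 fold change -0.15 ± 0.06, adjusted p = 0.0843). It passed without sample 1 of Trps1 siRNA (log2 fold change -0.18, adjusted p = 0.0155), and with DESeq2 (adjusted p = 0.0359). Actg1 measured 985, 968, 880 and 901 CPM, also without overlap, and was not called (91.2% of control, adjusted p = 0.169). The difference between Acta2 and the cytoplasmic actins was not tested. The enteric smooth muscle actin Actg2 was counted 2, 0, 1 and 5 times and was not tested.

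**Figure D2:**
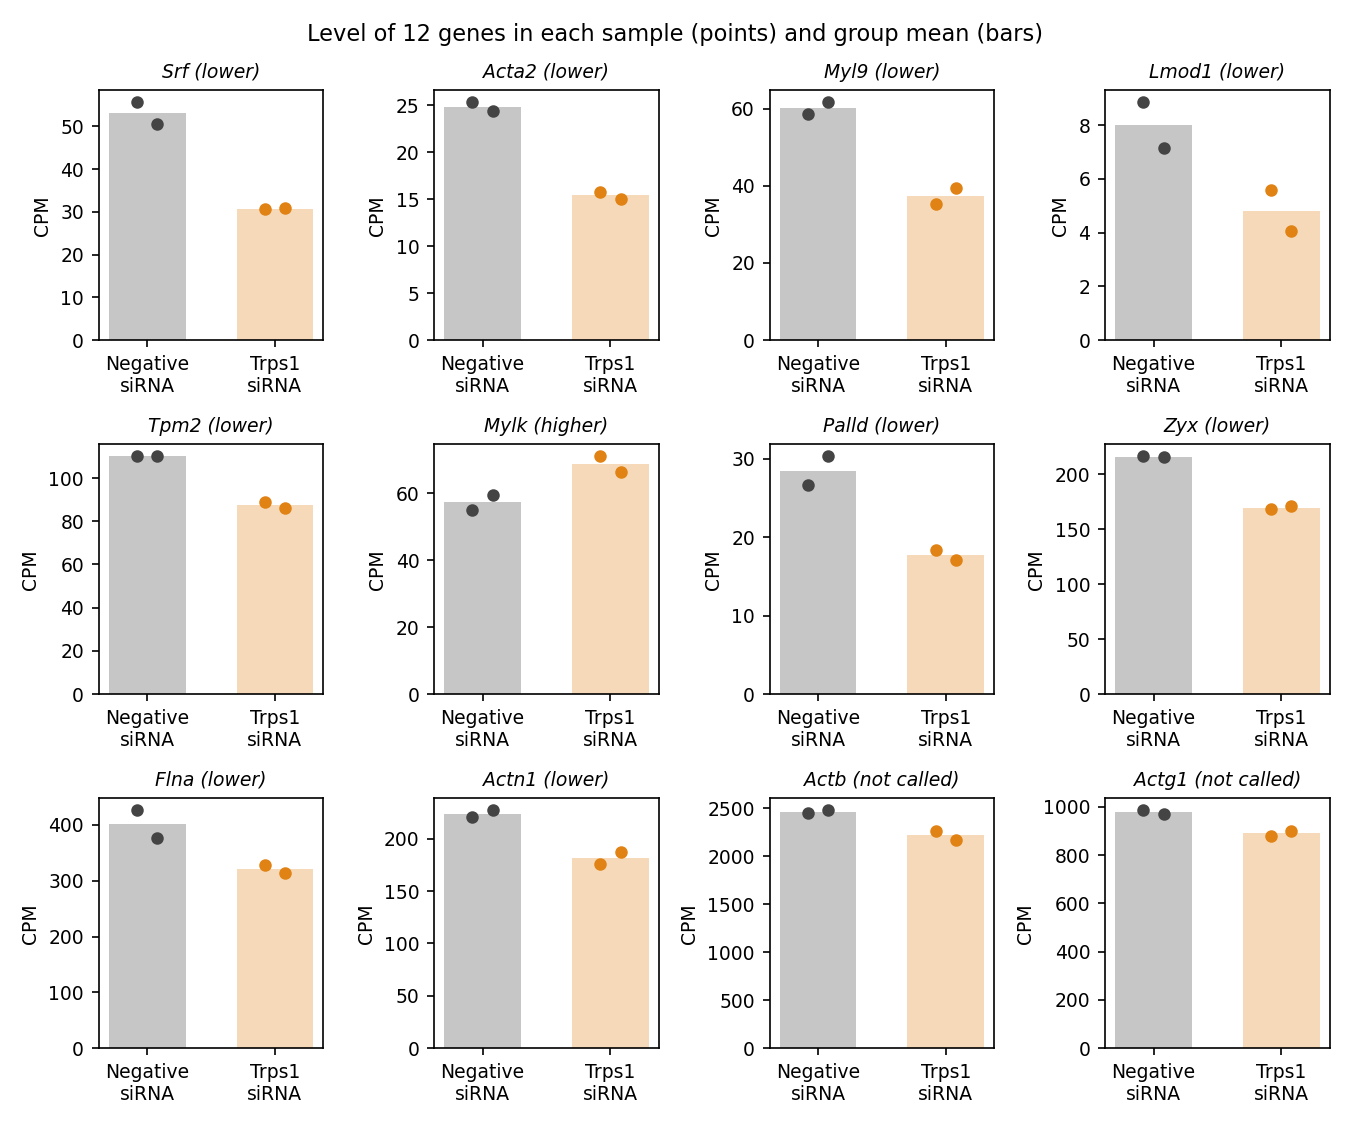
Level in CPM of 12 genes in each sample (points), with the mean of each group of 2 as a bar starting at 0. For Srf, Acta2, Myl9 and Palld the fitted Trps1 siRNA level is at 57.9% to 62.2% of control, for Tpm2, Zyx, Flna and Actn1 at 78.7% to 81.1%, and for Actb and Actg1 at 90.1% and 91.2%, while Mylk is higher than control.

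Of the smooth muscle genes, 7 of 10 were tested, of which 4 fell, 1 rose and 2 were not called. Myl9 (chr2:156775420-156781658, ENSMUSG00000067818), the smooth muscle regulatory light chain of myosin, measured 58.5 and 61.6 CPM in the controls and 35.2 and 39.4 CPM with Trps1 siRNA. All control values were above all Trps1 siRNA values, and the level was 62.2% of control (log2 fold change -0.69 ± 0.08, SE, adjusted p = 1.14e-06). Tpm2, the tropomyosin known as the β form, stood at 110 CPM in both controls and at 88.7 and 86.3 CPM with Trps1 siRNA. It fell to 79.8% of control (log2 fold change -0.33 ± 0.06, SE, adjusted p = 3.80e-04).

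Lmod1 (chr1:135324807-135368065, ENSMUSG00000048096), a leiomodin that nucleates actin filaments in smooth muscle, was scarce, with 178 and 183 reads in the controls and 100 and 88 with Trps1 siRNA. The levels were 8.85, 7.15, 5.60 and 4.05 CPM, and the groups did not overlap. Its log2 fold change was -0.73 ± 0.19 (SE, adjusted p = 0.0105). The call was lost without sample 1 of Negative siRNA (log2 fold change -0.58, adjusted p = 0.0874), without sample 2 of Trps1 siRNA (-0.51, adjusted p = 0.214) and with DESeq2 (adjusted p = 0.0962).

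Mylk phosphorylates the regulatory light chains that Myl9 and its relatives encode, and it moved the other way. It measured 55.0 and 59.6 CPM in the controls and 71.0 and 66.3 CPM with Trps1 siRNA, without overlap, and rose 1.20-fold (log2 fold change 0.26 ± 0.07, SE, adjusted p = 0.0187). The rise was not called by DESeq2 (adjusted p = 0.0952), without sample 1 of Negative siRNA (0.20, adjusted p = 0.195) or without sample 1 of Trps1 siRNA (0.21, adjusted p = 0.124). Gene-level counts do not separate the long, short and telokin products of Mylk. Mylk also shares exon sequence with 2 genes on the opposite strand, and the sources used here do not say whether the counting used strand.

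Cald1 (caldesmon, an actin-binding inhibitor of myosin) and Tpm1 (α-tropomyosin) are made in muscle and nonmuscle forms, which gene counts do not separate. Cald1 measured 380, 418, 352 and 421 CPM, with the groups overlapping (log2 fold change -0.04 ± 0.07, adjusted p = 0.782). Tpm1 measured 331, 323, 309 and 332 CPM, also overlapping (-0.03 ± 0.06, adjusted p = 0.84). The contractile markers Cnn1, counted 1, 1, 2 and 3 times, and Tagln, counted 5, 3, 0 and 5 times, were close to the detection limit in every library and were not tested, so the smooth muscle class as measured here lacks 3 of its most specific genes.

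Among the general actin genes, the largest change was in a crosslinker of stress fibres. Palld (palladin, chr8:61511433-61902690, ENSMUSG00000058056) measured 26.7 and 30.3 CPM in the controls and 18.4 and 17.1 CPM with Trps1 siRNA, and the lower control was well above both. It fell to 62.2% of control (log2 fold change -0.68 ± 0.10, SE, adjusted p = 5.19e-05). Actn1, the α-actinin that bundles filaments in stress fibres, fell from 221 and 227 to 176 and 187 CPM (81.1% of control, -0.30 ± 0.06, adjusted p = 8.02e-04). Its paralogue Actn4 measured 759, 704, 688 and 706 CPM, overlapping, and was not called (-0.07, adjusted p = 0.541). Per length, Actn4 was the more abundant of the pair, and the share of Actn1 in their TPM was 24.4% and 26.3% in the controls and 22.1% and 22.7% with Trps1 siRNA.

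The filamins crosslink filaments into networks. Flna, the common form, measured 426 and 377 CPM in the controls and 328 and 313 CPM with Trps1 siRNA, and fell to 79.9% of control (-0.32 ± 0.06, SE, adjusted p = 0.00115). Without sample 1 of Negative siRNA, the higher control, the log2 fold change was -0.23 and the call was lost (adjusted p = 0.0563). Flnc was low and was the member with the highest ratio to control: 13.6, 14.1, 18.3 and 17.1 CPM, both Trps1 siRNA samples above both controls. Its log2 fold change of 0.35 ± 0.12 did not pass the test (adjusted p = 0.0556). It passed when genes under a mean of 5 CPM were left out (adjusted p = 0.0452) or when library totals alone set the scale (0.36, adjusted p = 0.0485). DESeq2 did not call Flnc (adjusted p = 0.263), nor did any fit with a sample left out. Flnc made up 3.09% and 3.62% of filamin TPM in the controls and 5.27% and 5.18% with Trps1 siRNA.

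The LIM-domain protein zyxin (Zyx), which marks focal adhesions and strained stress fibres, fell from 216 and 215 CPM to 168 and 171 CPM. The samples within each group were nearly equal, at 78.7% of control (log2 fold change -0.35 ± 0.06, SE, adjusted p = 1.35e-04). Zyx shares exon sequence with Epha1 on the opposite strand. Lima1 (EPLIN), a LIM protein that stabilises filaments, measured 137, 130, 112 and 109 CPM and fell to 83.3% of control (-0.26 ± 0.06, adjusted p = 0.00257), a call lost without sample 1 of Negative siRNA (-0.23, adjusted p = 0.0665). The PDZ-LIM adaptors Pdlim5 (77.6, 82.8, 74.9 and 81.3 CPM) and Pdlim7 (46.8, 48.1, 44.4 and 47.0 CPM) overlapped between groups and were not called.

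The nonmuscle calponins and transgelin bind along filaments and are the relatives of the near-absent Cnn1 and Tagln. Cnn2 measured 33.2 and 30.7 CPM in the controls and 23.9 and 23.0 CPM with Trps1 siRNA, clearly apart, and fell to 73.4% of control (-0.45 ± 0.09, SE, adjusted p = 0.00174). Cnn3 supplied 94.5% to 95.7% of calponin TPM and fell from 706 and 738 to 628 and 638 CPM (87.6% of control, -0.19 ± 0.06, adjusted p = 0.0385). That call was lost in each of the 4 fits with a sample left out (adjusted p from 0.0603 without sample 2 of Trps1 siRNA to 0.295 without sample 2 of Negative siRNA), with library totals alone (adjusted p = 0.055) and without robust dispersion (adjusted p = 0.0634). Tagln2 measured 183, 170, 153 and 144 CPM and fell to 83.8% of control (-0.25 ± 0.06, adjusted p = 0.00461). It was not called without sample 1 of Negative siRNA (-0.20, adjusted p = 0.114) or without sample 2 of Trps1 siRNA (-0.21, adjusted p = 0.0718).

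Myosin II is built from heavy chains, essential light chains and regulatory light chains, and its members differed. The essential light chain Myl6 fell from 466 and 478 CPM to 406 and 379 CPM, without overlap (83.3% of control, -0.26 ± 0.06, SE, adjusted p = 0.00414). The nonmuscle regulatory light chain Myl12a measured 99.9, 101, 86.1 and 81.1 CPM and fell to 83.2% of control (-0.26 ± 0.06, adjusted p = 0.0044). Without sample 2 of Trps1 siRNA it was not called (-0.22). The exons of Myl12a overlap those of the second Myl12b identifier on the same strand, as do exons of the first Myl12b identifier. The sources used here do not say how reads in shared exons were counted, and such reads may be missing from either gene. Myl12b under its first identifier measured 3.03, 2.62, 3.02 and 3.27 CPM (0.16 ± 0.24, adjusted p = 0.749) and had 0 reads under the second in all samples.

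Per length, both the sum of the regulatory light chains and its makeup differed between groups. Myl9, Myl12a and Myl12b summed to 255 and 257 TPM in the controls and to 177 and 186 TPM with Trps1 siRNA. Myl9 held 62.0% and 63.2% of that sum in the controls and 53.1% and 57.3% with Trps1 siRNA. The sum uses the first Myl12b identifier and full exon lengths. The sum and its shares therefore depend on how reads in the shared exons of Myl12a and Myl12b were counted, which was not stated. The heavy chain Myh9 measured 519, 492, 437 and 458 CPM, without overlap, and missed the threshold (-0.18 ± 0.06, adjusted p = 0.0604). DESeq2 called it (adjusted p = 0.0406), but no fit with a sample left out did. The other heavy chain, Myh10, was scarce, at 6.77, 5.70, 4.99 and 7.13 CPM, and overlapped between groups (-0.02 ± 0.19, adjusted p = 0.964).

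The members Cfl1 and Pfn1, which turn filaments over, were below both controls in both Trps1 siRNA samples but did not pass the test. Cfl1 (cofilin, which severs filaments) measured 576, 581, 530 and 500 CPM (89.0% of control, adjusted p = 0.0747). It was called without sample 1 of Trps1 siRNA (-0.21, adjusted p = 0.0317) and with DESeq2 (adjusted p = 0.0418). Pfn1 (profilin, which loads actin monomers onto growing ends) measured 715, 715, 653 and 606 CPM (88.0% of control, -0.18 ± 0.06, adjusted p = 0.0515). DESeq2 (adjusted p = 0.0209) and limma voom (adjusted p = 0.0374) called it, as did the fit without sample 1 of Trps1 siRNA (-0.24). With any other sample left out Pfn1 was not called (-0.19 to -0.13).

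Vcl, Tln1 and Tln2, whose adhesion proteins link filaments to integrins, were not called. Vcl (vinculin) measured 27.1, 27.1, 27.7 and 27.8 CPM (log2 fold change 0.04 ± 0.09, adjusted p = 0.86). Tln1 (talin) measured 542, 509, 525 and 500 CPM and overlapped between groups (-0.04, adjusted p = 0.788), and Tln2, at 10.5, 9.26, 9.41 and 8.74 CPM, held 0.924% to 1.02% of talin TPM and was not called (adjusted p = 0.686). Vasp, an elongation factor at filament ends, measured 109, 109, 106 and 99.6 CPM (-0.09, adjusted p = 0.395). The formin Diaph1, which extends filaments, measured 81.3, 77.7, 77.1 and 75.8 CPM (-0.06, adjusted p = 0.658). These 5 genes all missed the threshold.

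The nonmuscle tropomyosins Tpm3 and Tpm4 were not called. Tpm3 measured 479, 481, 515 and 506 CPM, both Trps1 siRNA samples being the higher (0.09, adjusted p = 0.393), and Tpm4 measured 336, 350, 330 and 316 CPM (-0.09, adjusted p = 0.42). Within the TPM of the 4 tropomyosin genes, Tpm2 held 11.8% and 11.6% in the controls and 9.75% and 9.64% with Trps1 siRNA. Tpm3 held 24.6% and 24.3% in the controls and 27.1% and 27.0% with Trps1 siRNA. Tpm4, the most abundant per length, stayed between 46.7% and 48.8% of the sum.

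Set side by side, 4 of 7 tested smooth muscle genes (57.1%) and 10 of 27 tested general actin genes (37.0%) fell, against 6.00% of all genes tested. The order of these shares depended on the tool: DESeq2 called 3 of 7 smooth muscle genes lower (42.9%) and 14 of the 26 general actin genes with an adjusted p (53.8%). Its share over all genes with an adjusted p was 4.45%. Both Trps1 siRNA samples were below both controls in 57.1% of the smooth muscle genes and 66.7% of the general genes, beside 26.1% of all genes tested. The median log2 fold change was -0.33 in the smooth muscle class, with a range from -0.73 to 0.26, and -0.15 in the general class, with a range from -0.68 to 0.16. In single samples the medians of the log2 ratio to the control mean were -0.31 and -0.35 for smooth muscle genes and -0.13 and -0.18 for general genes in samples 1 and 2 of Trps1 siRNA. The classes overlapped: Palld fell as far as Myl9, and Cald1 and Tpm1 had values like those of Tln1 and Pdlim5. The difference between the class medians was not tested. With a narrower smooth muscle list of 5 genes, 2 were tested, Acta2 and Lmod1, and their median was -0.71.

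Outside the 39 genes, known MRTF targets were counted from a list of 30, of which 29 were tested. Of these, 4 fell (Dstn, Thbs1, Ccn2 and Itga1) and 1 rose (Ablim1), with a median log2 fold change of -0.11. Of all genes tested, 6.00% were called lower and 5.24% higher. Dstn (destrin, a relative of cofilin that depolymerises actin) measured 201, 209, 138 and 148 CPM, with a wide gap between groups (70.1% of control, -0.51 ± 0.06, SE, adjusted p = 9.76e-07). Thbs1, a matrix glycoprotein, fell from 67.3 and 68.6 to 45.5 and 52.4 CPM (72.2% of control, adjusted p = 1.09e-04). Ccn2, a matricellular protein, fell from 16.9 and 17.1 to 11.9 and 13.3 CPM (74.2% of control, adjusted p = 0.0209). Ablim1, a LIM protein that binds actin, rose from 47.2 and 41.6 to 55.8 and 56.9 CPM (1.27-fold, adjusted p = 0.00365).

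The Ablim1 call was lost without sample 2 of Negative siRNA (0.26, adjusted p = 0.108), where the adjusted p of the integrin Itga1 was 0.351, against 0.0474 with all samples (-0.39 ± 0.13). Itga1 was also not called without either Trps1 siRNA sample, with library totals alone, without robust dispersion, with DESeq2 or with limma voom. DESeq2 called 2 of the 29 targets lower and 1 higher, where it called 4.45% of all genes with an adjusted p lower. The Ccn2 call was lost without sample 1 of Trps1 siRNA (-0.36, adjusted p = 0.136), and without either control sample. Dstn and Thbs1 passed in every fit with a sample left out, with adjusted p values of at most 3.46e-05 and 0.00321.

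Among 9 SRF immediate early genes, which ternary complex factors serve, 1 fell and 0 rose, and the median log2 fold change was -0.25. The shares over all genes tested were 6.00% lower and 5.24% higher. Ier2 fell from 42.9 and 38.7 to 31.4 and 32.4 CPM (78.4% of control, adjusted p = 0.00626), a call lost without sample 1 of Negative siRNA (-0.28, adjusted p = 0.105). The zinc finger factor Egr1 measured 86.8, 87.2, 63.0 and 82.2 CPM (-0.26, adjusted p = 0.137), the lowest value being sample 1 of Trps1 siRNA. Nr4a1, a nuclear receptor, had a log2 fold change of -0.27 (adjusted p = 0.132) and Fosb, an AP-1 subunit, 0.46 (adjusted p = 0.155).

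The lists on filament assembly gave few calls, where 6.00% of all genes tested were called lower and 5.24% higher. Of 10 genes of the Arp2/3 complex, which branches filaments, the 2 core actin-related subunits moved in opposite directions, and the median was -0.09. Actr2 rose from 171 and 174 to 214 and 215 CPM (1.24-fold, 0.31 ± 0.06, SE, adjusted p = 4.05e-04). Actr3 fell from 235 and 237 to 203 and 199 CPM (85.2% of control, -0.23 ± 0.06, adjusted p = 0.00833), a call lost without sample 2 of Negative siRNA (adjusted p = 0.0759), and likewise when sample 2 of Trps1 siRNA was left out.

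Of 15 genes that cap, sever or bind monomers, Capg, a capping protein of macrophages and other cells, fell, 0 rose and the median was -0.07. Capg measured 229, 248, 203 and 174 CPM (79.1% of control, adjusted p = 0.00143), and was not called without sample 2 of Trps1 siRNA (-0.23, adjusted p = 0.0511). Of 16 formins and WASP family genes, Was, known from blood cells, fell, 0 rose and the median was -0.06. Was measured 15.4, 14.3, 12.5 and 9.48 CPM (73.5% of control, adjusted p = 0.0374). It was not called without sample 2 of Trps1 siRNA (-0.25), without sample 1 of Negative siRNA, with DESeq2 or without robust dispersion. Macrophage markers moved the same way: 8 of 11 fell (Adgre1, Cd68, Aif1, Tyrobp, Lyz2, Mrc1, C1qa and Fcgr3) and 0 rose. The share called lower over all genes tested was 6.00%. The summed level of these markers was 2845, 2744, 2420 and 1913 CPM, lowest in sample 2 of Trps1 siRNA. Without that sample the calls of Lyz2, Mrc1 and Fcgr3 were lost. The C1qa call was lost at a mean of at least 5 CPM. The part of macrophages in the values of Capg, Was and the 39 genes was not tested.

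**Figure D3:**
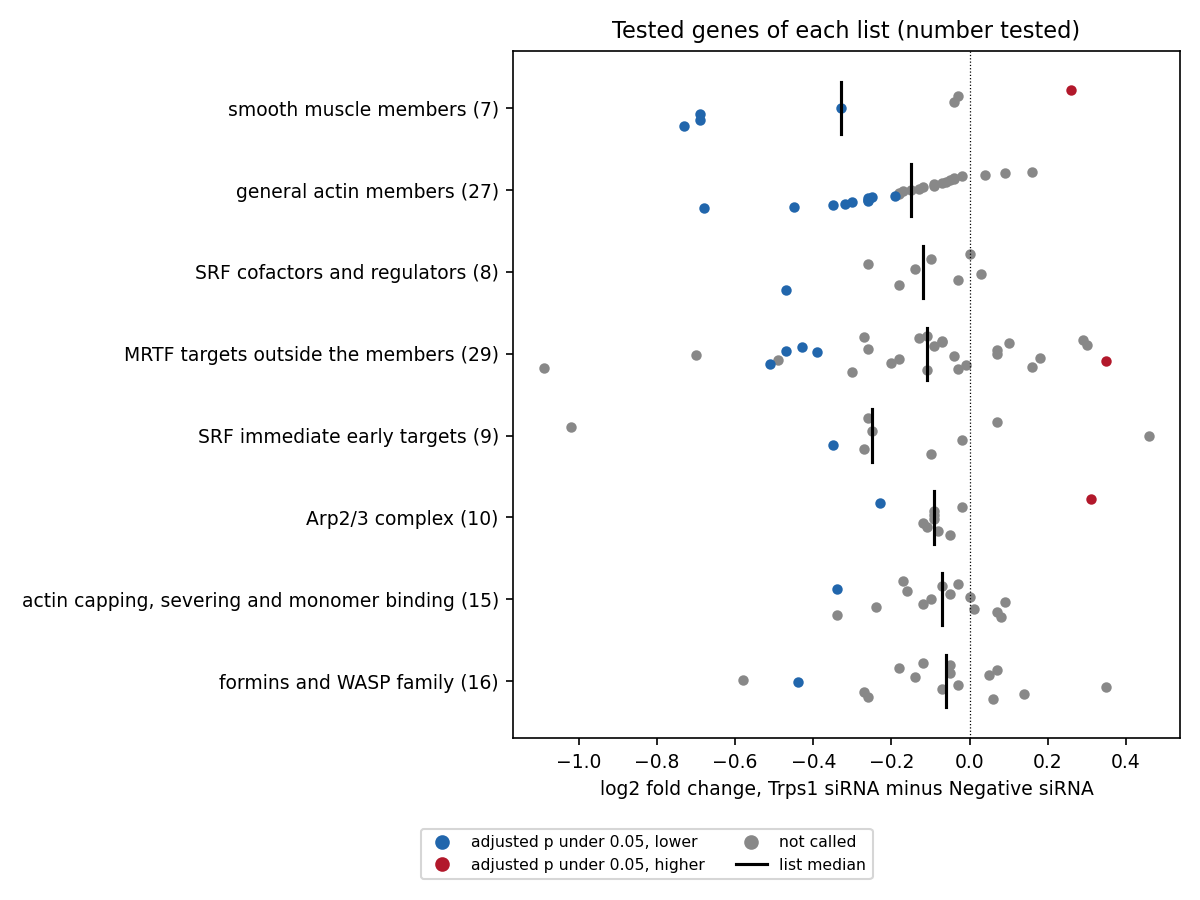
Log2 fold change (horizontal axis) of each tested gene in the smooth muscle and general actin classes and in 6 pathway lists, with list medians as black lines and the number of tested genes in brackets. The smooth muscle median of -0.33 and the immediate early median of -0.25 lie furthest to the left, and the other pathway medians lie between -0.12 and -0.06.

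Markers of other cell types were counted beside the members, where 6.00% of all genes tested were called lower and 5.24% higher. Of 11 tested markers of peritubular myoid cells, smooth muscle and pericytes, 0 fell and 1 rose (Abcc9, a potassium channel subunit, 1.28-fold). Without sample 2 of Trps1 siRNA the Abcc9 call was lost (log2 fold change 0.22). No marker was called lower by edgeR, DESeq2 or limma voom, and 1 had an unadjusted p under 0.05. Their summed level was 161 CPM in both controls and 171 and 187 CPM with Trps1 siRNA. Abcc9 alone made up 71.5, 81.6, 89.7 and 107 CPM of it, and without it the sum was 89.6, 79.2, 80.9 and 80.5 CPM. The part of such cells in the values of the smooth muscle genes was not tested. Myh11, the smooth muscle myosin heavy chain, was counted 17 to 27 times per library, Pln had 0 reads in every library, and Des (desmin) measured 9.15, 7.81, 6.95 and 7.09 CPM. Myh11, Des, Smtn and Synpo2 stand in this list and among the MRTF targets.

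Of 11 skeletal and cardiac muscle markers 0 had enough reads to be tested, and 6 were at 0 in every library. Among 8 fibroblast markers Col1a2 and Dcn fell and Col3a1 rose, and the summed level was 5285, 5264, 5261 and 5198 CPM. The Col3a1 call was lost when either control sample was left out. No endothelial marker was called, of 7 tested, with sums between 35.9 and 43.6 CPM, nor any of 3 Sertoli markers and 1 germ cell marker. In these 3 lists 0 genes had an unadjusted p under 0.05 with edgeR, and DESeq2 and limma voom called 0. Of 8 Leydig markers 6 rose (Cyp11a1, Cyp17a1, Hsd3b1, Nr5a1, Lhcgr and Hsd17b3), and their sums were 4054 and 4337 CPM in the controls and 6035 and 6477 CPM with Trps1 siRNA. Whether the rise of the Leydig markers bears on the actin genes was not tested.

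The CArG box was searched for in RefSeq promoters of 300 bases, 250 before and 50 after the start. The pattern is its own reverse complement, so both strands give the same matches, and it was searched once strictly and once with 1 core letter allowed to be C or G. For 34 of the 39 genes a promoter was matched by symbol, in 41 promoter entries. The genes without a match by symbol were Actg2, Actb, Tagln, Tln2 and Diaph1. A strict CArG box occurred in 7 of 41 member promoters (17.1%) and in 535 of 32851 promoters of the table (1.63%). The members were listed as SRF and actin genes, so this share describes the list and is no test of it.

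Within the members, a strict box was found in 5 of the 15 that fell (Srf, Myl9, Cnn2, Lima1 and Myl6) and in 2 of 17 that were not called (Actg1 and Vcl). Srf had 2 boxes, which begin 82 and 62 bases before the start. The box of Cnn2 began 56 bases before its start, that of Actg1 90 bases and that of Vcl 227 bases. The boxes of Lima1 and Myl6 began 47 and 50 bases before starts that lie inside the GENCODE gene models. The other Myl6 promoter in the table, nearer to the 5′ end of its gene model, had 0 matches. The letters of the Vcl box are the same as those of Cnn2 and Lima1, and Vcl was not called while Cnn2 and Lima1 fell. With 1 deviating core letter allowed, Acta2 and Myl12a joined the members that fell (7 of 15) and Flnc, Tpm3 and Vasp joined those not called (5 of 17). The other 8 members that fell (Palld, Lmod1, Zyx, Tpm2, Flna, Actn1, Tagln2 and Cnn3) had no match of either kind in these windows.

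Over all tested genes with a promoter in the table calls were counted with and without the box. Of 157 genes with a strict box, 11 were called lower (7.01%), against 668 of 10507 without one (6.36%), and the medians of the log2 fold change were -0.02 and 0. With the relaxed pattern, 94 of 1127 genes were called lower (8.34%), against 585 of 9537 without a match (6.13%). These counts include the members themselves. With a strict box there were 7 members, which gave 5 of the 11 lower calls. With the relaxed pattern there were 12 members, which gave 7 of the 94 lower calls. A match is a description of the letters in the window and does not show that SRF was bound there.

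**Figure D4:**
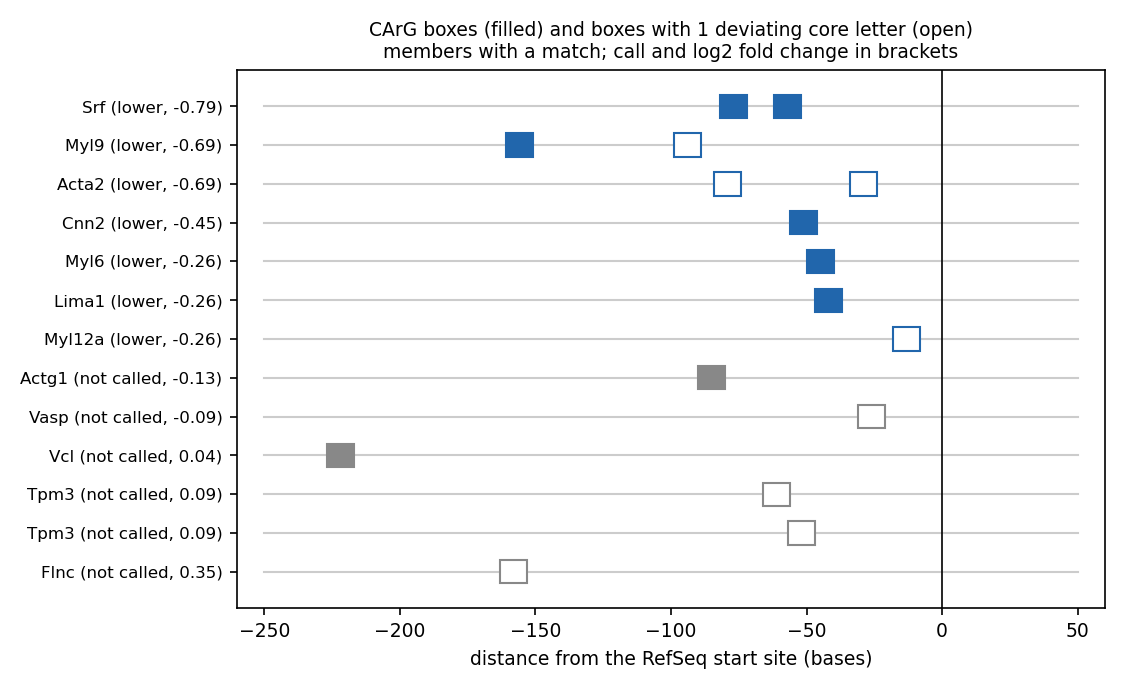
Position of CArG boxes (filled) and of boxes with 1 deviating core letter (open) relative to the RefSeq start (bases, 0 at the line) in the members with a match, ordered by log2 fold change. The lower members (blue) carry their matches between 161 and 18 bases before the start, and the members not called (grey) carry theirs between 227 and 31 bases before it, strict boxes being those of Actg1 and Vcl.

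The authors' deposited table of 780 genes listed 12 of the 15 members that fell and did not list Flna, Cnn3 or Lmod1. For Srf, the authors' deposited table gave a log2 fold change of -0.79 with an adjusted p of 2.49e-11, and for Myl9 -0.69 with 1.54e-09. Recalculated with DESeq2 from the counts, which gave an adjusted p for 35 members, 18 members were called lower beside 4.45% of all genes, adding Actb, Cfl1, Myh9 and Pfn1 and losing Lmod1. Of the 16 called members, 9 (Srf, Myl9, Palld, Zyx, Tpm2, Acta2, Actn1, Cnn2 and Myl6) passed the threshold in each of the 12 alternative fits listed under the processing.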

How the data were processed

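Total RNA was sequenced from 4 samples of primary Leydig cells, grouped by their titles. The authors deposited whole-number read counts per gene; alignment with HISAT2 to GRCm38 (mm10) and counting with featureCounts are named in the submitters' processing notes. Strandedness and the handling of multiply mapped reads were not stated. The authors' deposited table of called genes also holds a mean signal per group, log2 fold changes and p-values, from a test that the sources used here do not name.

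Symbols, positions and exon lengths came from GENCODE M21 (55141 of 55812 features matched), and promoters from RefSeq on GRCm38.p6. Counts were tested with edgeR 4.0.16 (R 4.3.3): TMM scaling, filterByExpr with a minimum count of 10, robust quasi-likelihood fit with group only, 2 residual degrees of freedom, and Benjamini-Hochberg adjustment over 14701 genes; genes with an adjusted p under 0.05 were called. CPM used TMM-scaled totals, and 3 counts were 0.117 to 0.168 CPM. Replicates differed by more than sampling noise (chi-square per gene 7.08 and 4.34). The 12 alternatives were RLE size factors, library totals, no filter on low counts, at least 5 CPM on average, limma 3.58.1 voom, DESeq2 1.42.0, robust=FALSE, the replicate block and each sample left out. The fit was tested on simulated data. Every member is named, with up to 4 genes of smallest p per pathway list, called markers and markers at 0; Itga1, Myh11, Des, Mrtfa, Mrtfb and Myocd were chosen after their values were seen. The members and lists were chosen with earlier results of these data known. Some further list results are not reported here.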

Additional observations from a re-analysis of the deposited data

How the results depend on the processing

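With 2 samples a group, a fit that leaves 1 out assumes that the lone sample varies like the other group's. All genes called numbered 1652, against 918 with DESeq2 and 871 to 1675 with 1 sample left out (871 without sample 2 of Trps1 siRNA). Members called lower numbered 15, 14 to 19 under the other settings and 10 to 17 with 1 sample left out, the lowest without sample 1 of Negative siRNA. Members called higher numbered 1, with 2 for library totals alone, for a mean of at least 5 CPM and for the replicate block, 0 for DESeq2, and 0 to 1 with 1 sample left out. The labels do not say whether samples of the same replicate number were paired, and their deviations correlated at 0.0165, which cannot settle it. With the replicate block 2285 genes were called, 19 members lower and 2 higher. The block added Actb, Cfl1, Flnc, Myh9 and Pfn1 and lost no member. The general actin median of -0.15 was -0.14 with library totals, -0.16 at a mean of at least 5 CPM and -0.17 to -0.13 with 1 sample left out. The median over all members, -0.16, was -0.15, -0.17 and -0.18 to -0.15 under the same settings. The smooth muscle median was -0.35 to -0.31 with 1 sample left out and -0.71 for the narrow list. No called member changed direction. Uncalled members near 0 that did, with 1 sample left out, ran on the log2 scale from -0.083 to 0.022 for Tpm1, from -0.083 to 0.0084 for Tln1, from -0.32 to 0.2 for Myh10, from -0.18 to 0.077 for Cald1 and from -0.1 to 0.018 for Pdlim5. The cause was not tested. Of 36 tested members 13 share exon sequence with another gene, 5 of the 16 called ones among them. Depth limits Actg2, Cnn1, Tagln and Myocd, for which no difference was detectable.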
